A study of Arabidopsis thaliana with 6 samples.

Results

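Class III peroxidases are the secreted, haem-containing peroxidases of plants. The genes described here are 59 Arabidopsis loci, which are the 73 members of the family without 14 that are given below for comparison only. They were listed by locus name, and no threshold on a measured value was used. The list was, however, made with earlier results of these data known. On the arrays 58 of the 59 loci were represented, by 75 spots with 75 different probes, among 29030 loci on the entire array. AT1G05240 had no spot. Of the 58 loci, 50 had a probe that was bright enough to be tested, and 8 did not.

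LS stands for lasalocid sodium, an ionophore of the polyether class, which takes cations through membranes. RNA was taken from whole wild-type Col-0 seedlings that were 3 days old when they were moved to liquid medium and 4 days old at harvest. All seedlings were kept in the dark for 24 h, either with 1 μM LS or without it, and each group was measured on 3 single-colour arrays. The question of the comparison was which transcripts LS changes in dark-grown seedlings. As the RNA is from whole seedlings, fewer cells of a type and less RNA per cell cannot be told apart. The labels do not say whether the 3 samples of a group came from separate cultures, so the p-values below measure only the spread between these samples.

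As background, class III peroxidases are secreted to the cell wall and apoplast, where they use hydrogen peroxide to oxidise phenolic compounds. With monolignols, wall-bound phenolics and structural proteins as substrates they can cross-link and stiffen the wall, and in another mode they release reactive oxygen species that can loosen it. NADPH oxidases of the plasma membrane make the superoxide from which much of the apoplastic hydrogen peroxide arises. Because the family is large and its genes are often duplicated side by side, single members are usually known by expression pattern more than by a mutant phenotype. Among the 59 loci, the reference table used for names gives a symbol other than the locus to 5 (RCI3, PRXR1, PA2, RHS18 and RHS19), and the others are called by locus here.

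Each level below is the log2 signal of a probe minus the 75th percentile of its array, and each difference is LS minus control on that log2 scale. A level depends on the probe as well as on the transcript, so levels of different genes were not compared. The brightest tested probe stood for a locus. A gene was called when the adjusted p of limma, a linear model fitted across all probes with Benjamini-Hochberg adjustment, was under 0.05 and the fold change was at least 1.5.

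The 75th percentile of the signal lay between 1067 and 1447 on the control arrays and between 1309 and 2123 on the LS arrays, and 72.6% to 77.0% of the spots were well above background. Arrays of the same group differed from each other by a median of 0.16 to 0.23 (control) and 0.24 to 0.37 (LS) on the log2 scale. Of the 6 arrays, 2 stood apart in ways that touch the values below. LS array 3 had the largest 75th percentile, and its spike-in spots lay at a mean level of −0.18, against 0.85 to 1.51 on the other arrays. Control array 3 had the smallest 75th percentile and was the lowest control array for many of the peroxidases, as given below. A first slide held the control arrays and LS array 1, and a second slide held LS arrays 2 and 3.

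More peroxidases were called higher than lower in LS-treated seedlings. Of the 50 tested loci, 12 were called higher (24.0%, where 3.18% of all 21827 tested loci were called higher), 1 was called lower (2%, where 2.19% of all were called lower) and 37 were not called. The difference was above 0 for 37 loci (74.0%, against 46.9% of all loci) and below 0 for 13. The median difference was 0.40 with quartiles at −0.06 and 1.24, whereas the median over all tested loci was −0.03. For 29 of the 50 loci every LS array lay above every control array (58.0%, against 17.6% of all loci), for 6 every LS array lay below (12.0%, against 17.9%), and for 15 the groups overlapped. As the probe filter keeps a gene that is bright in only 1 group, these counts describe the tested loci and not the entire list. The calls were not limited to dim probes, since 46 of the 50 loci were well above background on all 6 arrays and these included 10 of the 12 called higher.

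**Figure D1:**
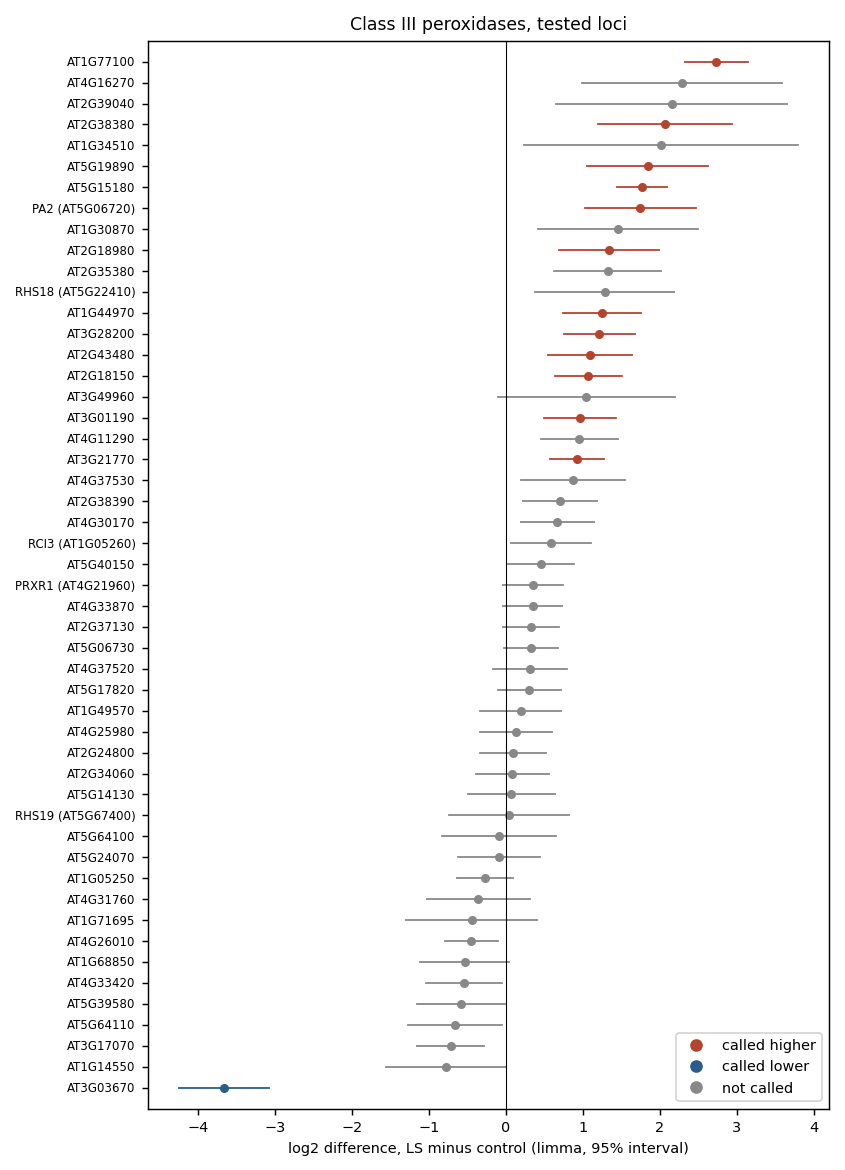
Difference in level between LS and control for the 50 tested class III peroxidases, as log2 (points) with 95% intervals from limma (lines). Red points are the 12 loci called higher, the blue point is AT3G03670, called lower, and grey points were not called. Of the 50 differences 37 lie above 0, and AT3G03670 lies at −3.66. The topmost point, AT1G77100, rests on control signals under the background limit, so its size was not measured.

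The lowered gene stood far from the rest of the list. AT3G03670 had levels of −2.16, −1.71 and −1.77 in control arrays 1, 2 and 3 and −5.35, −5.24 and −6.03 in LS arrays 1, 2 and 3, the order used for every gene below. The groups were separated by a gap of 3.07, and the probe was well above background on all 6 arrays. The gene fell by 3.66 (SE 0.25, adjusted p = 0.00341 by limma), which is 12.6-fold lower in LS. Within the slide that held both groups the difference was −3.47, also called. With a different background correction (normexp) the difference was −2.37, a smaller fold, and it was still called.

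AT5G15180 was the most evenly raised member. Its levels were −1.23, −1.24 and −1.29 in the controls and 0.51, 0.55 and 0.49 with LS. The 3 arrays of each group thus agree within an SD of 0.03, and the difference of 1.77 (SE 0.14, adjusted p = 0.00453 by limma) corresponds to 3.41-fold. AT5G15180 was also the only locus on the array that passed the methods' t-test once that test was adjusted for multiple testing.

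AT1G77100 was near the background in the controls. Its levels were −9.33, −9.70 and −9.31 there, under the background limit in each control, and −6.76, −6.81 and −6.57 with LS, well above background on all 3. It was called higher (adjusted p = 0.00341 by limma). As the control side is under the background limit, the size of the rise was not measured. The LS mean was 1.43-fold above the mean of the lowest signals that counted as well above background on the control arrays. Those signals come from any probe, so 1.43-fold is not a lower bound. A probe of AT5G58390, at −6.79, −6.83 and −7.16 in the controls, was well above background on only 1 of these 3 arrays. With normexp the difference of AT1G77100 was 0.12 and was not called.

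AT2G38380, AT5G19890 and PA2 (AT5G06720, also named PRX53, a peroxidase studied for lignin polymerisation) had large called rises too. Those of AT2G38380 and AT5G19890 were larger than that of AT5G15180. AT2G38380 had levels of 0.91, 0.78 and −0.55 in the controls and 2.60, 2.45 and 2.29 with LS, a difference of 2.07 (SE 0.37, 4.19-fold, adjusted p = 0.0317 by limma). AT5G19890 had levels of 1.32, 1.35 and 0.26 in the controls and 3.19, 2.41 and 2.85 with LS, a difference of 1.84 (SE 0.34, 3.58-fold, adjusted p = 0.0324 by limma). PA2 had levels of −4.09, −4.66 and −5.38 in the controls and −2.85, −3.04 and −3.01 with LS, a difference of 1.74 (SE 0.31, 3.35-fold, adjusted p = 0.0311 by limma). In all 3 genes the groups did not overlap and control array 3 was the lowest array, so that the size of the rise depended on that array. Without it the rises were 1.60, 1.48 and 1.41, and of these only that of AT2G38380 was called. With normexp the rise of PA2 was 1.03, still called.

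The other 7 raised genes differed by 0.92 to 1.34. AT2G18980 had levels of 3.05, 2.96 and 2.03 in the controls and 4.12, 4.05 and 3.89 with LS (difference 1.34, SE 0.28, adjusted p = 0.0424 by limma). AT1G44970 had levels of 0.32, 0.29 and −0.35 in the controls and 1.40, 1.22 and 1.38 with LS (difference 1.25, SE 0.22, adjusted p = 0.0302 by limma). Its other probe gave 1.41 and was called as well. For AT3G28200, at 2.48, 2.51 and 2.01 in the controls and 3.66, 3.33 and 3.65 with LS, all 3 probes were called, with differences of 1.21, 1.23 and 1.24. Different probes of these genes therefore gave the same direction and nearly the same size.

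AT3G21770 had levels of 0.78, 0.90 and 0.73 in the controls and 1.82, 1.59 and 1.75 with LS (difference 0.92, SE 0.15, adjusted p = 0.0275 by limma). AT2G18150 lay at −3.68, −3.70 and −3.92 in the controls and at −2.54, −3.0 and −2.56 with LS (difference 1.07, SE 0.19, adjusted p = 0.0300 by limma). AT3G01190 lay at 2.87, 2.94 and 2.67 in the controls and at 4.03, 3.90 and 3.42 with LS (difference 0.96, SE 0.20, adjusted p = 0.0428 by limma). These 3 genes had narrow control groups, and no LS array of theirs came within 0.48 of a control array. AT2G43480 was dim, at −7.03, −6.75 and −7.51 in the controls, where 1 of 3 arrays was well above background, and at −5.95, −6.25 and −5.80 with LS. Its difference of 1.09 (adjusted p = 0.0448 by limma) became 0.05 with normexp, so the call depends on how background was treated.

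**Figure D2:**
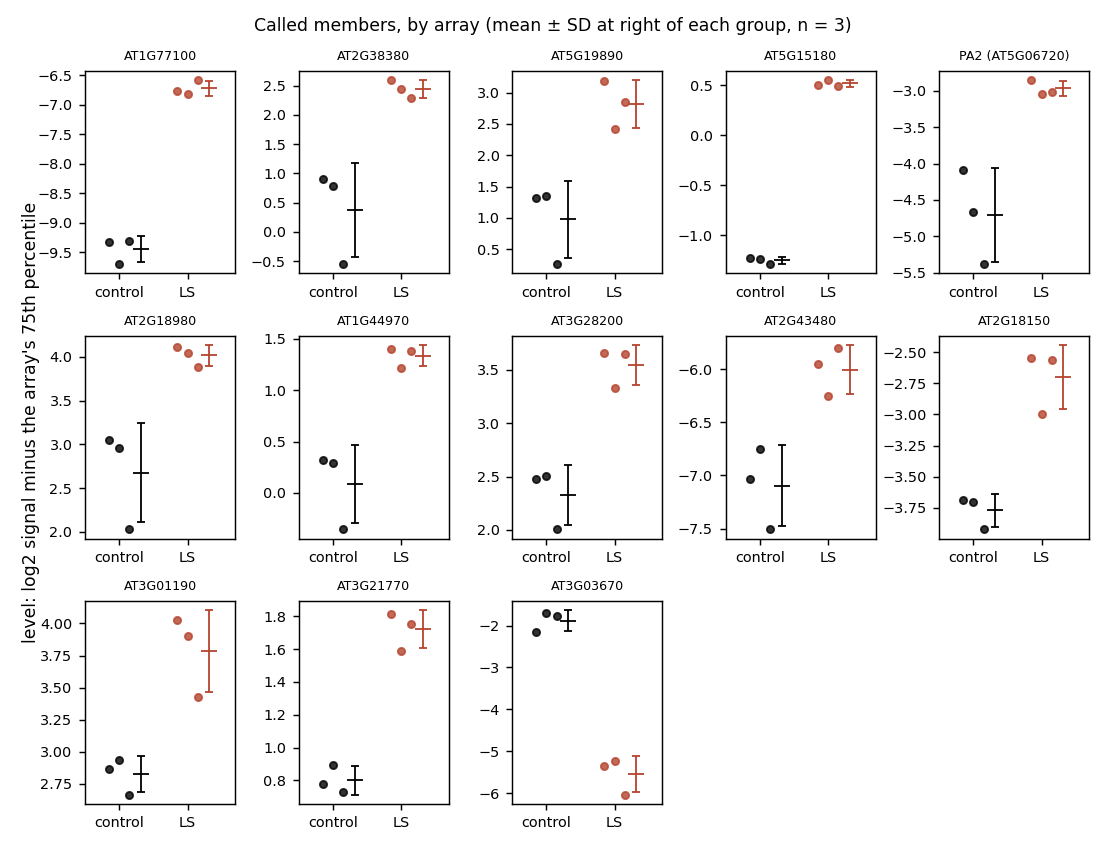
Level of each called class III peroxidase on every array, as log2 signal minus the array's 75th percentile, with the control arrays in black, the LS arrays in red and the mean ± SD (n = 3) beside each group. The vertical scale differs between panels. No panel has overlapping groups, and control array 3, the third black point, is the lowest control in 11 of the 12 raised genes.

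How many genes were called rested on all arrays being present. Leaving out 1 array at a time left between 2 (without control array 2 or LS array 1) and 7 (without LS array 2) of the 50 loci called higher, with 3 without control array 1 and 4 without control array 3 or LS array 3. In the same fits 0.197% to 2.28% of all loci were called higher and 0.0732% to 1.91% lower. AT5G15180 and AT1G77100 were called higher and AT3G03670 lower in each of these fits. No called gene changed direction in any of them, which was fixed beforehand because the groups of these genes did not overlap. For AT1G77100 these fits, and that within the slide that held both groups, reuse control signals under the background limit. They therefore do not measure its rise.

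Slide and treatment overlapped in part, because 2 of the 3 LS arrays were on a slide without controls. Within the shared slide, LS array 1 against the 3 controls gave the same sign as all arrays for 48 of 50 loci. These arrays are part of the full comparison, so the signs are not independent. For the 13 called genes the sign was fixed beforehand, because their groups did not overlap. The median difference within the shared slide was 0.57, and 39 loci lay above 0. Calls in this smaller comparison were limited to AT5G15180 and AT1G77100 (higher, where 0.248% of all loci were called higher) and AT3G03670 (lower, against 0.537% of all loci), with the lone LS array taken to vary like the controls.

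A second group of genes had large differences that were not called, and in these the controls disagreed. Of the loci not called, 7 had a difference of at least 1, and in all 7 control array 3 was the lowest control. Because the group takes large differences that failed the test, wide spread follows in part from the choice. A low control array also enlarges the difference that admits a gene. AT4G16270 had levels of −3.89, −4.44 and −6.29 in the controls and −2.55, −2.39 and −2.83 with LS (difference 2.28, SE 0.56, adjusted p = 0.0589 by limma). AT2G39040 had levels of −1.91, −2.15 and −4.59 in the controls and −0.70, −0.78 and −0.72 with LS (difference 2.15, SE 0.64, adjusted p = 0.0936 by limma). The LS arrays of AT2G39040 agree closely (SD 0.04), while control array 3 lay more than 2 log2 units below the other controls. Without control array 3 the difference of AT4G16270 was 1.58 (adjusted p = 0.0529 by limma) and that of AT2G39040 was 1.30 (adjusted p = 0.0440 by limma, called).

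AT1G34510 was the most variable member, at −4.47, −5.90 and −7.74 in the controls and −3.42, −4.78 and −3.86 with LS, and its groups overlapped (difference 2.02, SE 0.76, adjusted p = 0.155 by limma). The other 4 of these 7 genes, AT1G30870, AT2G35380, RHS18 and AT3G49960, had differences of 1.45, 1.32, 1.28 and 1.05, with LS arrays all above the controls. Without control array 3 these were 0.89, 0.99, 0.88 and 0.42, and none was called. AT1G30870, AT2G35380 and AT3G49960 are named because they belong to this small group and were chosen after their values were seen. AT2G35380 missed the threshold with an adjusted p of 0.0504 by limma. With normexp the differences of AT4G16270, AT1G34510 and AT2G35380 were 1.31, 0.52 and 0.33, and only that of AT4G16270 was called.

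Control array 3 was the lowest control in 35 of the 50 loci (70.0%, against 42.4% of all loci). The controls spanned more than 1 log2 unit in 14 loci (28.0%, against 5.79% of all loci), and control array 3 was the lowest in 12 of these. The LS arrays spanned that much in 4 loci (8%, against 10.8% of all loci). The median deviation of the 50 loci from their control mean was 0.14, 0.09 and −0.19 in control arrays 1, 2 and 3 and 0.57, 0.41 and 0.43 in LS arrays 1, 2 and 3. By this median the peroxidases were lowest on control array 3, and higher on each LS array than on each control array, although the groups overlapped in 15 loci and ran the other way in 6. The median level itself was −0.13, −0.10 and −0.62 in the controls and −0.07, −0.27 and −0.14 with LS. By that measure the groups overlapped. The signal summed over the 50 probes, in which the brightest probes weigh most, ranged on the log2 scale from 8.32 to 8.69 on the control arrays and from 8.66 to 8.92 on the LS arrays, so on that scale the groups overlapped.

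**Figure D3:**
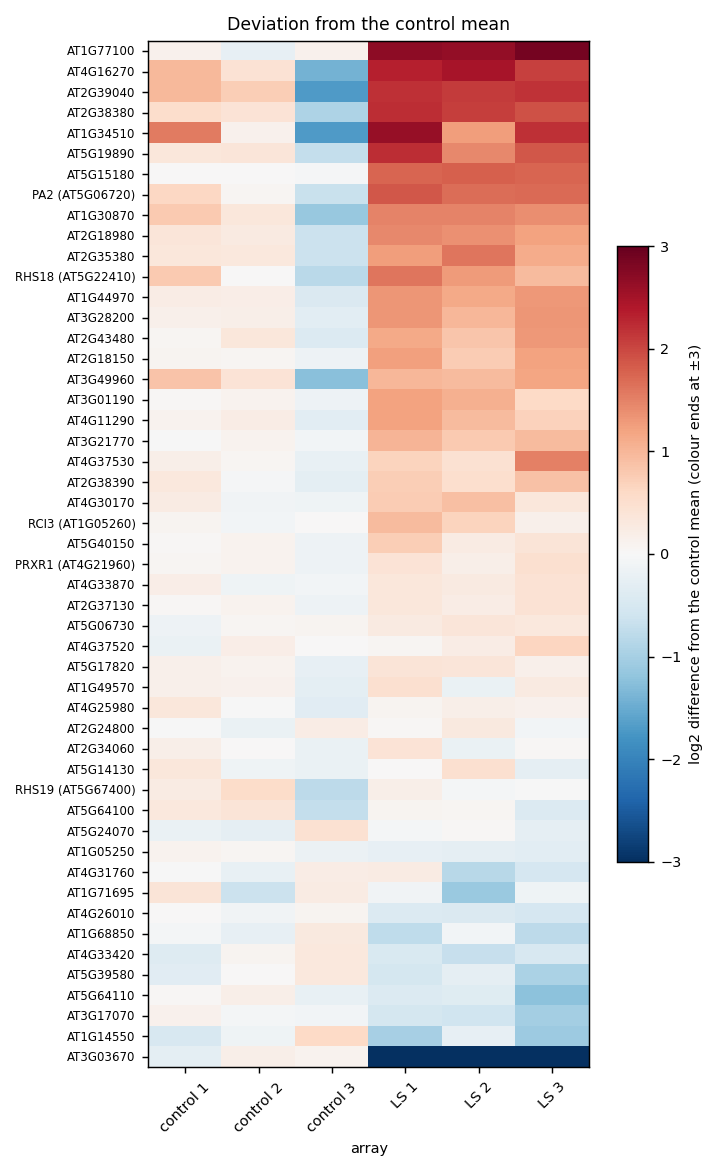
Deviation of each tested class III peroxidase (rows, ordered by the difference between LS and control) from its own control mean on each array (columns), as log2, with red above and blue below and the colour ending at ±3. Control array 3 is blue in many of the genes that are red on the LS arrays, and AT3G03670 at the bottom is low on all 3 LS arrays.

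Many class III peroxidases are made in roots, so the markers of root cell types were read on the same arrays. The 10 root hair markers (EXPA7, EXPA18, LRX1, LRX2, PRP1, PRP3, COW1, RSL4, RHD6 and CSLD3) were well above background on every array, none was called, and control array 3 was the lowest control for 8 of 10. Their mean level was −1.47, −1.73 and −2.48 in the controls and −1.57, −1.47 and −1.45 with LS, so the mean was lowest on control array 3 and lay between −1.73 and −1.45 on the other arrays. On the scale of the summed signal, in which the brightest markers weigh most, the level was 3.27, 3.03 and 3.40 in the controls and 3.29, 2.60 and 2.91 with LS, so control array 3 was the highest by this measure. The differences of the 10 markers ran from −0.84 (CSLD3) to 1.73 (EXPA7) with a median of 0.06, and 5 of them lay below 0. EXPA7, an expansin of root hairs with the largest rise of the list, lay at −1.46, −1.81 and −3.31 in the controls and at −0.42, −0.42 and −0.56 with LS (difference 1.73, adjusted p = 0.0654 by limma). The part of root hairs in the peroxidase values was not tested.

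RHS18 and RHS19 are named root hair specific in the reference. RHS18 (AT5G22410) lay at −1.63, −2.41 and −3.22 in the controls and at −0.81, −1.14 and −1.46 with LS, without overlap (difference 1.28, SE 0.39, adjusted p = 0.0968 by limma). RHS19 (AT5G67400) lay at −0.51, −0.22 and −1.56 in the controls and at −0.58, −0.82 and −0.77 with LS, overlapping (difference 0.04, SE 0.33, 95% interval −0.74 to 0.81). Neither was called, and in both control array 3 was the lowest array of all 6.

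The endodermis and xylem markers moved less than the root hair markers between the control arrays, with median ranges of 0.23 and 0.48 against 1.08. Between the LS arrays the median ranges were alike, at 0.46, 0.50 and 0.50. Control array 3 was the lowest control for 2 of 8 endodermis markers and 6 of 7 xylem markers. The 8 endodermis markers, among them the Casparian strip proteins CASP1 to CASP5, had mean levels of 1.44 to 1.59 in the controls and 1.36 to 1.66 with LS. Of the 8, 1 (12.5%, against 3.18% of all loci) was called higher, CASP4 (difference 0.87). None of the 7 xylem markers was called, with differences between −0.11 and 0.25. The mean level of the xylem markers was −0.11, −0.01 and −0.39 in the controls and 0.11, −0.31 and −0.04 with LS. Of 6 anther tapetum markers, chosen as a control because seedlings have no anthers, 3 (AMS, MS1 and CYP704B1) were not well above background on any array. The other 3 were tested. LAP6 (mean −0.61 in the controls, −0.98 with LS) and LAP5 (−4.90 and −4.91) were well above background on all 6 arrays. AT5G07230 was called lower, from −5.98 to −7.75, where 1 of 3 LS arrays was well above background (2.19% of all loci were called lower). The control list thus did not stay empty. If seedlings lack these transcripts, a signal well above background does not by itself show that a transcript was present.

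Genes that were lower but not called had small differences beside the fall of AT3G03670. The 3 largest were AT1G14550 (0.20, 0.53 and 1.27 in the controls, −0.33, 0.41 and −0.42 with LS, difference −0.78, adjusted p = 0.194 by limma), AT3G17070 (−0.47, −0.67 and −0.69, then −1.12, −1.21 and −1.63, difference −0.72, adjusted p = 0.0697 by limma) and AT5G64110 (1.76, 1.90 and 1.49, then 1.31, 1.35 and 0.50, difference −0.67, adjusted p = 0.165 by limma). The groups overlapped for AT1G14550 and were separate for AT3G17070 and AT5G64110. AT3G17070 was called only when the methods' t-test or limma was used without adjustment.

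The 5 probes with the highest mean level among the tested peroxidases stood for AT5G64100, AT2G37130, PRXR1, AT5G39580 and AT4G30170, and none of these genes was called. AT5G64100 lay at 7.04, 7.11 and 6.02 in the controls and at 6.80, 6.79 and 6.32 with LS, a difference of −0.09 (95% interval −0.82 to 0.65) whose sign changed with the scaling of the arrays. AT5G39580 lay at 5.19, 5.53 and 5.82 in the controls and at 4.99, 5.25 and 4.56 with LS (difference −0.58, adjusted p = 0.188 by limma). AT4G30170 lay at 4.80, 4.44 and 4.43 in the controls and at 5.31, 5.46 and 4.91 with LS (difference 0.67, adjusted p = 0.0977 by limma). AT2G37130 and PRXR1 differed by 0.32 and 0.35, with the LS arrays just above the controls. PRXR1 had 6 probes, of which 5 gave a difference above 0, from −0.43 to 0.86 over all 6, and none was called.

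AT4G11290 was the only gene of the list with several tested probes that were split by the call. Its brightest probe lay at 3.81, 3.93 and 3.38 in the controls and at 4.93, 4.66 and 4.40 with LS, and it missed the threshold with a difference of 0.95 (adjusted p = 0.0507 by limma). The other probe gave 1.16 (adjusted p = 0.0334 by limma) and was called. Of the 11 loci with several tested probes, 9 had the same sign on all of them.

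RCI3 (AT1G05260), named for its induction by cold, lay at 3.92, 3.75 and 3.84 in the controls and at 4.77, 4.51 and 3.98 with LS. The LS arrays were all above the controls but spread (SD 0.40 against 0.08), and the difference of 0.59 (SE 0.22) was not called (adjusted p = 0.153 by limma). AT4G26010, at 2.92, 2.80 and 2.99 in the controls and 2.50, 2.48 and 2.39 with LS, differed by −0.45 (adjusted p = 0.112 by limma), with every LS array below the controls. AT4G33420 and AT5G17820 differed by −0.54 and 0.30 and were not called. With spike-in scaling the differences of AT4G26010 and AT4G33420 became positive. The 11 tested genes not named here were not called, and their differences lay between −0.54 and 0.45.

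Several of the genes lie next to each other, with no other protein-coding gene between them in the reference annotation. There were 9 such pairs within the list, and both genes were tested in 5. The called genes AT2G38380 (2.07) and PA2 (1.74) had the neighbours AT2G38390 (0.70, adjusted p = 0.0884 by limma) and AT5G06730 (0.32, adjusted p = 0.229 by limma), which were not called. In the other 3 pairs no gene was called, with differences of −0.27 and 0.59 for AT1G05250 and RCI3, 0.31 and 0.87 for AT4G37520 and AT4G37530 (a pair named after its values were seen), and −0.09 and −0.67 for AT5G64100 and AT5G64110. The called genes AT2G18150 and AT5G19890 each lie beside a gene, AT2G18140 and AT5G19880, that was not well above background on any array. Neighbouring peroxidases thus had different values, but the difference between neighbours was not tested, and since probe sequences were not used here it is not known how far a probe also binds the transcript of its neighbour.

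**Figure D4:**
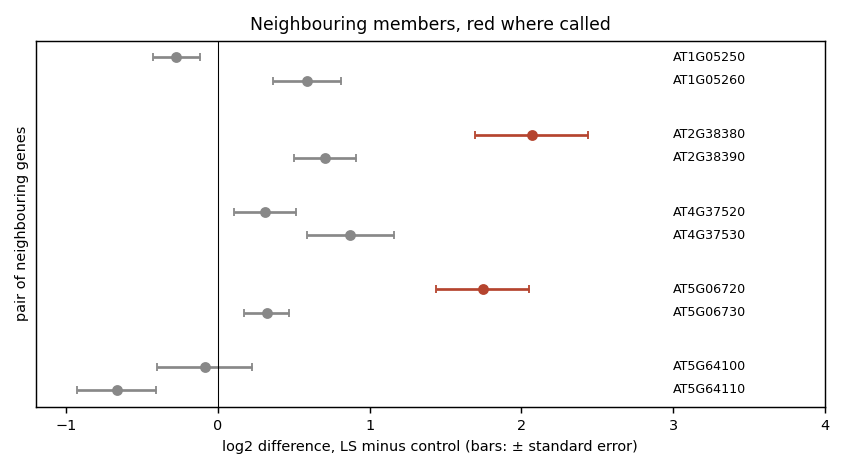
Difference between LS and control, as log2 with its standard error, for the 5 pairs of neighbouring class III peroxidases in which both genes were tested, with called genes in red. AT2G38380 and AT5G06720 (PA2) are called at 2.07 and 1.74, and their neighbours lie at 0.70 and 0.32.

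Of all tested loci on the array, 3.18% were called higher. Among the peroxidases, 4 of 10 tested loci on chromosome 2, 3 of 6 on chromosome 3 and 2 of 10 on chromosome 1 were called higher. On chromosome 5 it was 3 of 13, and on chromosome 4 none of 11. The median difference of the chromosome 4 loci was nevertheless 0.35, near those of chromosomes 1 (0.39) and 5 (0.30), and it was 1.08 on chromosome 2 and 0.94 on chromosome 3. On chromosome 4 the uncalled genes AT4G16270 and AT4G11290 lay close to the threshold. With 6 to 13 tested loci on each, the chromosomes were not compared by a test.

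The 8 loci that were not tested were dim. AT1G24110, AT2G18140, AT3G50990, AT4G17690 and AT5G19880 were not well above background on any of the 6 arrays. AT3G50990 is PER36, a peroxidase known from seed coat cells that release mucilage. AT5G47000, AT5G58390 and AT5G58400 were well above background on some arrays only. AT5G47000 lay at −8.17, −9.70 and −8.15 in the controls, not well above background there, and at −6.05, −6.81 and −6.87 with LS, where 2 of 3 arrays were well above background, so it was not tested although no LS array overlapped the controls.

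Outside the list, the 14 other class III peroxidases were all tested. Of these 14, 4 were called higher (28.6%, against 3.18% of all loci), namely PRXCA (1.51), Prx37 (1.39), PRXCB (1.17) and PER64 (0.92). None was called lower, and their median difference was 0.51. Both parts of the family therefore lay above the median of all loci on these arrays, and the difference between the parts was not tested. Of the 10 NADPH oxidase genes 8 were tested, with a median difference of 0.02. None was called higher, and 1 was called lower (12.5%, against 2.19% of all loci), RBOHA (difference −0.92, SE 0.18, adjusted p = 0.0372 by limma). The other tested probe of RBOHA gave −0.81 (adjusted p = 0.0512 by limma) and was not called. RBOHD, the main oxidase of the defence burst, differed by 0.08, and RHD2, the oxidase of root hair growth, by −0.25, and neither was called.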

How the data were processed

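Single-colour arrays of 3 control and 3 LS samples were compared. The authors scanned them with Agilent Feature Extraction 10.7.3.1, which subtracts background, and deposited its processed signal, which is a linear intensity. They also deposited a value table, in which each value is the ratio of the processed signal to the array's 75th percentile over the listed spots. Each sample was mapped by its title, and 0 sample columns were left unmapped.

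Here 1417 control spots were left out and 43803 kept. Log2 of the signal minus each array's 75th percentile was used, outlier spots were set missing (314 in tested probes) and spots of a probe were averaged. A probe was tested when all arrays of 1 group or both were well above background (32372 of 43603 probes, naming 21828 loci, of which 21827 could be fitted). Groups were compared in R 4.3.3 with limma 3.58.1, which was also run on simulated data. No spot was saturated. The number of arrays limits the precision. Genes named are those called on any probe, those above background in 1 group only, the 5 brightest, the 3 largest uncalled rises and falls, a list of members with a described role, and neighbours. Most members with a described role have no name in the reference, so no role is printed for them, apart from AT3G50990 (PER36). Members and lists were chosen with earlier results of these data known. Names come from the TAIR10.1 table, which held all 59 loci. Coordinates are left out because the array was designed on an older annotation. Alternatives were quantile, median and spike-in scaling, normexp (offset 50, on the median signal, as mean signals were not used here), other probe filters, the methods' t-test (Welch), other thresholds, replicate number and slide as blocks, the value table, other choices of probe and each array left out.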

Additional observations from a re-analysis of the deposited data

How the results depend on the processing

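The count of 12 genes called higher fell to 2 without the filter on dim probes (0.393% of all loci), to 2 with the slide as a block (0.101%) or within the shared slide (0.248%), and to 1 with the adjusted methods' t-test (0.00458%), and it rose to 23 with limma without adjustment (8.82%). Each of the 6 fits without 1 array gave 2 to 7 genes higher (0.197% to 2.28% of all loci) and 1 lower (0.0732% to 1.91%). The median difference in these fits was 0.37 to 0.55. The count of 1 gene called lower became 2 with the unadjusted methods' t-test (4.51% of all loci), 0 with the adjusted methods' t-test (also 0 of all loci) and 4 of 50 with unadjusted limma, where 9.03% of all loci were called lower. The replicate numbers did not pair the samples, as the deviations of same-numbered arrays correlated at 0.03, −0.12 and −0.19. With the replicate block 3 genes were called higher (0.779% of all loci) and 1 lower (0.499%). The median of 0.40 became 0.63 with quantile normalization, and 0.99 with spike-in scaling, which moved the median of all loci from −0.03 to 0.56 and their calls from 694 higher and 478 lower to 721 and 56. The direction changed for AT5G64100 (0.29 with quantile normalization, 0.50 with spike-in scaling, 0.076 with the slide as a block and within the slide, −0.44 to 0.11 without 1 array), RHS19 (AT5G67400; −0.030 with median centring, −0.36 to 0.31 without 1 array), with spike-in scaling, AT1G05250 (0.32), AT5G39580 (0.0099), AT4G26010 (0.14) and AT4G33420 (0.047). None of the 13 called genes changed direction. As their groups did not overlap, this was fixed beforehand wherever the same levels were reused. Alternatives that changed only the test or the threshold kept the same differences, so direction could not change in them. The slide as a block and the fit within the shared slide gave the same differences as each other. The alternatives are therefore not independent checks. Over the 39 named genes and 24 alternatives, 767 of 933 values kept direction and side of the threshold, 109 lost and 43 gained the call and 14 changed direction. The causes were not tested. The treatment of background moved several dim genes, with normexp differences of 0.12 for AT1G77100, 0.048 for AT2G43480, 0.52 for AT1G34510, 0.33 for AT2G35380, 1.31 for AT4G16270, 1.03 for PA2 (AT5G06720) and −2.37 for AT3G03670. The number of arrays, 3 a group, limits every value.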
